A study of Rattus norvegicus with 119 samples.

Results

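Erythroid transcripts are RNAs made in cells of the red blood cell lineage. In these rat hippocampi they were followed through 5 genes: Hbb (gene 24440, probe set 10724315), Hbb-b1 (gene 361619, probe set 10724319), Alas2 (gene 25748, probe set 10932912), Ahsp (gene 293522, probe set 10711396) and Alox15 (gene 81639, probe set 10744425). A probe set was taken when the symbol of 1 of these genes was the only symbol given for it. Each gene had 1 such probe set, so 5 of 29214 probe sets were described, in every array of the series. A further 3 globin probe sets carried several symbols and are not named by gene.

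The study asked how early-life lead changes gene expression in the hippocampus, by strain, sex, dose and developmental period. Each array held RNA of 1 animal, and every value is a log2 intensity of a probe set, so a difference of 1 is a 2-fold change and levels cannot be compared between genes. Rats were of the Fischer, Long Evans or Sprague Dawley strain, of both sexes, and all tissue was taken on postnatal day 55. Strain, sex and treatment made 30 groups of 4 animals, except that the male controls of Sprague Dawley were 3.

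Lead acetate was given in rat chow at 250 or 750 ppm. In the perinatal period, dams ate lead food from 10 days before breeding until weaning, and the pups then ate control food. In the postnatal period, lead food ran from birth to postnatal day 45 and control food followed. Controls ate the same chow without added lead. No genotype was altered in any group. The labels did not give litters, so the p-values below rest on the spread between animals, some of which may be littermates.

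Hemoglobin is built from alpha and beta globin chains, each holding a heme. Red cells lose their nucleus before they enter the blood, and their youngest form, the reticulocyte, still carries globin RNA, so blood left in a dissected brain region brings these RNAs with it. Hbb and Hbb-b1 encode beta globin chains. Alas2 encodes the erythroid form of the enzyme that starts heme synthesis. Ahsp encodes a chaperone that binds free alpha globin. Alox15 encodes a lipoxygenase known from the clearing of organelles in reticulocytes, and from other cell types as well. Lead is known to block several enzymes of heme synthesis, among them that encoded by Alad.

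Windows around the annotated gene starts are shown for Hbb-b1, Hbb and Alas2. They are RefSeq sequences of the GRCr8 build, from 250 bases before the gene start to 50 bases after it, printed 5′ to 3′ on the strand of the gene. Of the 5 genes, these 3 had a matching entry. Capitals mark motifs known from erythroid promoters. They were searched on both strands as follows: the CACCC motif as CACACCC, the CAAT box as CCAAT, the GATA motif as AGATAA and in its other form as TGATAA, and the TATA-like box as CATATAAA and in a shorter form as CATAAA. Of these, TGATAA was in none of the 3 windows. Hbb-b1 lay at chr1:167643471-167643770 on the minus strand, Hbb at chr1:167663672-167663971 on the minus strand, and Alas2 at chrX:22895200-22895499 on the plus strand.
Hbb-b1: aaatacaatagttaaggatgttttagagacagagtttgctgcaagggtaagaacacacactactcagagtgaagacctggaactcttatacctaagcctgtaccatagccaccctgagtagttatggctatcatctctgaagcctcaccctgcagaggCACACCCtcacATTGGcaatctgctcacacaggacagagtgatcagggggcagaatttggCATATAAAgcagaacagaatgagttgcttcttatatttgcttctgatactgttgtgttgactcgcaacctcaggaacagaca
Hbb: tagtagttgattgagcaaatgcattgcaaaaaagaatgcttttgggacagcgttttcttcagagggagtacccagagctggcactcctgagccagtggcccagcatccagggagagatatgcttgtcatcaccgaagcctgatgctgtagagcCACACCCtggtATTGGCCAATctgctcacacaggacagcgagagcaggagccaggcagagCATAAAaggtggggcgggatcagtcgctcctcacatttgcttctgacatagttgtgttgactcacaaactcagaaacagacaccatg
Alas2: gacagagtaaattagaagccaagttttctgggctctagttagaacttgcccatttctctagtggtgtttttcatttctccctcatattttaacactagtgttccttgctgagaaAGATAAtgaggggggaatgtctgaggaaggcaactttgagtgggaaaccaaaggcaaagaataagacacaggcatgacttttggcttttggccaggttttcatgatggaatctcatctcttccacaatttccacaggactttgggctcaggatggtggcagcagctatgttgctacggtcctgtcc

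The CACCC motif was in both beta globin promoters, at position -92 in Hbb-b1 and -97 in Hbb, counted from the gene start. Hbb-b1 held CCAAT once, on the other strand at -81. Hbb held it on both strands, at -81 and -86, and these matches lie side by side. A TATA-like box stood at -32 in Hbb-b1 and at -37 in Hbb. The Alas2 window held 1 GATA motif, at -136. Whether the annotated gene start of Alas2 is the one used in red cells was not tested, so its window may lie outside its promoter. Of 33469 promoters of this length, 7.08% held CACACCC, 37.5% CCAAT, 11.6% AGATAA, 9.03% TGATAA, 12.7% CATAAA and 0.977% CATATAAA. The Hbb-b1 and Hbb windows were identical at 198 of 308 alignment columns (64.3%), and those of Hbb-b1 and its neighbour Hbb-bs at 285 of 301 (94.7%). The beta globin genes are related copies whose transcripts were not compared here, so how far each probe set also binds RNA of the others is uncertain.

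The arrays themselves bear on what follows. Hippocampal markers were present: 11 of 12 lay above percentile 81.1 of all probe sets by mean level, and Spink8 lay at percentile 25.6. Expression of sex-linked genes went against the label in 8 arrays, 3 of Long Evans and 5 of Sprague Dawley. Another 4 arrays, of which 2 belong to those 8, stood apart in Tph1, a pineal gland gene, with levels from 10.05 to 12.98 against at most 7.83 elsewhere. They were Fischer male control 2, Fischer male postnatal 750 ppm animal 4, Long Evans male control 4 and Sprague Dawley male perinatal 750 ppm animal 4. For comparisons of treatments, sexes or control strains that hold these arrays, the value without them is given where it moved by more than 1.5 times or passed to the other side of a threshold. Animals of a group also carried lower or upper numbers in their labels, and in Fischer 60.9% of all probe sets differed between these sets of numbers. Their meaning was not given in the labels.

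The members were among the most variable transcripts of the tissue. Their SD over all arrays lay at percentile 97.6 (Hbb), 98.95 (Hbb-b1), 98.1 (Alas2), 98.2 (Ahsp) and 99.4 (Alox15) of all probe sets. Without the arrays with raised Tph1 the Alox15 SD went from 0.78 to 0.27 in Fischer and from 0.52 to 0.25 in Long Evans. In Sprague Dawley it went from 0.32 to 0.33. The Alox15 rank thus rests partly on those arrays, and no percentile was computed without them. Hbb ran from 10.32 through a median of 11.24 to 12.43, and Hbb-b1 from 8.96 through 10.26 to 11.67. Alas2 ran from 6.82 through 7.69 to 9.25. These are ranges of more than 4-fold between animals. Ahsp ran from 3.99 through 4.78 to 6.04 and its mean level stood at percentile 11.6 of all probe sets, so its values lie near the dim end of the array. Alox15 ran from 6.32 through 6.84 to 11.04.

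The same animal was highest for 4 of the 5 members. Sprague Dawley male 3 of the perinatal 750 ppm group had 12.43 for Hbb, 11.67 for Hbb-b1, 9.25 for Alas2 and 6.04 for Ahsp. Its Alox15 level, 8.17, was the highest among arrays without a raised Tph1 level. For Alox15 the 3 highest of all arrays were all arrays with raised Tph1: Fischer male postnatal 750 ppm animal 4 with 11.04, Long Evans male control 4 with 9.66 and Fischer male control 2 with 9.27. The fourth such array had an Alox15 level of 7.13.

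**Figure D1:**
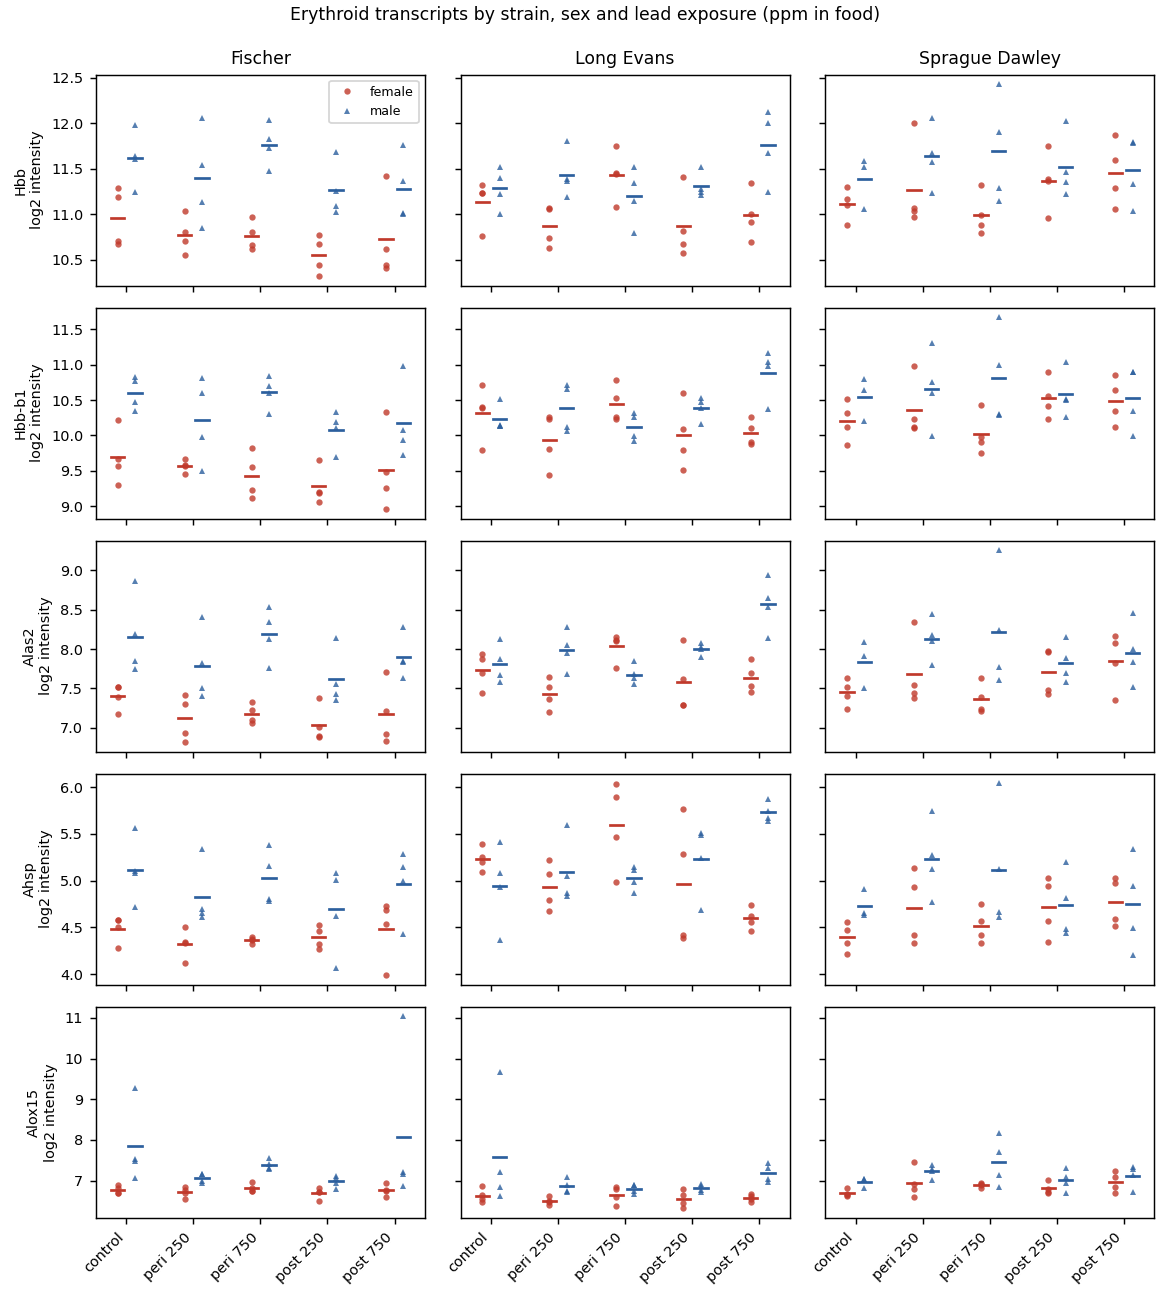
Log2 intensity of Hbb, Hbb-b1, Alas2, Ahsp and Alox15 (rows) in each animal by strain (columns) and treatment (x axis: control food, perinatal and postnatal lead at 250 and 750 ppm in food), females as circles, males as triangles and group means as lines. Male means lie above female means throughout Fischer, the Long Evans males given postnatal lead at 750 ppm lie high for Alas2 and Ahsp, and the 3 highest Alox15 points belong to arrays with raised Tph1.

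Mean levels by strain and treatment are given as mean ± SD over both sexes, with n = 8 animals, or 7 for Sprague Dawley controls. In Fischer rats Hbb averaged 11.29 ± 0.45 in controls, 11.09 ± 0.49 and 11.27 ± 0.56 after perinatal lead at 250 and 750 ppm, and 10.91 ± 0.45 and 11.00 ± 0.49 after postnatal lead at those doses. In Long Evans rats Hbb averaged 11.21 ± 0.23 in controls, 11.16 ± 0.37 and 11.31 ± 0.30 after perinatal lead, and 11.09 ± 0.35 and 11.37 ± 0.52 after postnatal lead. In Sprague Dawley rats Hbb averaged 11.23 ± 0.25 in controls, 11.45 ± 0.44 and 11.34 ± 0.56 after perinatal lead, and 11.44 ± 0.32 and 11.47 ± 0.34 after postnatal lead. Hbb was thus highest in Sprague Dawley rats after postnatal lead at 750 ppm and lowest in Fischer rats after postnatal lead at 250 ppm. Ordered by level, all 14 pairs of neighbouring conditions differed by less than the smaller of their SDs, the largest step being 0.095. Sorting 15 means by size makes neighbouring steps small in any case, and the SDs span both sexes. Here and for the members below, these steps therefore do not test whether conditions differ.

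The second beta globin gene, Hbb-b1, gave a similar picture. In Fischer rats Hbb-b1 averaged 10.15 ± 0.57 in controls, 9.90 ± 0.53 and 10.02 ± 0.68 after perinatal lead, and 9.68 ± 0.49 and 9.84 ± 0.64 after postnatal lead. In Long Evans rats Hbb-b1 averaged 10.28 ± 0.29 in controls, 10.16 ± 0.41 and 10.29 ± 0.27 after perinatal lead, and 10.20 ± 0.38 and 10.46 ± 0.52 after postnatal lead. In Sprague Dawley rats Hbb-b1 averaged 10.35 ± 0.32 in controls, 10.51 ± 0.48 and 10.41 ± 0.63 after perinatal lead, and 10.55 ± 0.28 and 10.51 ± 0.36 after postnatal lead. The top condition was Sprague Dawley after postnatal lead at 250 ppm and the bottom again Fischer after postnatal lead at 250 ppm. No neighbouring pair differed by more than 0.164, less than the smaller SD in 14 of 14 pairs.

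The heme synthesis enzyme Alas2 had its lowest mean in the same Fischer condition. In Fischer rats Alas2 averaged 7.78 ± 0.53 in controls, 7.45 ± 0.50 and 7.69 ± 0.59 after perinatal lead, and 7.33 ± 0.42 and 7.54 ± 0.50 after postnatal lead. In Long Evans rats Alas2 averaged 7.78 ± 0.22 in controls, 7.71 ± 0.36 and 7.86 ± 0.24 after perinatal lead, and 7.79 ± 0.34 and 8.10 ± 0.55 after postnatal lead. In Sprague Dawley rats Alas2 averaged 7.62 ± 0.30 in controls, 7.91 ± 0.42 and 7.79 ± 0.68 after perinatal lead, and 7.77 ± 0.26 and 7.90 ± 0.35 after postnatal lead. Long Evans after postnatal lead at 750 ppm was highest, and the step down to the next condition, Sprague Dawley after perinatal lead at 250 ppm, was the largest at 0.196. It was still below the smaller SD of that pair, 0.419.

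The alpha globin chaperone Ahsp was highest in Long Evans rats. In Fischer rats Ahsp averaged 4.80 ± 0.41 in controls, 4.58 ± 0.37 and 4.70 ± 0.40 after perinatal lead, and 4.54 ± 0.35 and 4.73 ± 0.42 after postnatal lead. In Long Evans rats Ahsp averaged 5.09 ± 0.34 in controls, 5.01 ± 0.29 and 5.31 ± 0.44 after perinatal lead, and 5.10 ± 0.53 and 5.16 ± 0.62 after postnatal lead. In Sprague Dawley rats Ahsp averaged 4.54 ± 0.23 in controls, 4.97 ± 0.46 and 4.82 ± 0.55 after perinatal lead, and 4.73 ± 0.31 and 4.76 ± 0.37 after postnatal lead. The highest 5 of the 15 means were all of Long Evans, and Sprague Dawley controls were lowest. The largest step between neighbours was 0.151, under the smaller SD of the pair.

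Alox15 differed from the other members in where its spread lay. In Fischer rats Alox15 averaged 7.31 ± 0.86 in controls, 6.89 ± 0.22 and 7.11 ± 0.32 after perinatal lead, and 6.83 ± 0.20 and 7.42 ± 1.48 after postnatal lead. In Long Evans rats Alox15 averaged 7.11 ± 1.06 in controls, 6.68 ± 0.23 and 6.72 ± 0.18 after perinatal lead, and 6.69 ± 0.21 and 6.88 ± 0.36 after postnatal lead. In Sprague Dawley rats Alox15 averaged 6.81 ± 0.18 in controls, 7.09 ± 0.31 and 7.17 ± 0.49 after perinatal lead, and 6.91 ± 0.22 and 7.04 ± 0.25 after postnatal lead. The 3 largest SDs belong to the conditions that held the arrays with raised Tph1 and the highest Alox15 levels. Neighbouring conditions in the order of Alox15 differed by at most 0.134.

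No member passed the test in any comparison of lead with control food. Exposed animals of each strain, period and dose were compared with the controls of that strain, with both sexes weighted equally, in a limma fit per strain and Benjamini-Hochberg adjustment over all probe sets. Over 5 members and 12 contrasts, 0 of 60 tests reached an adjusted p under 0.05 and 7 had an unadjusted p under 0.05. Differences ran from -0.48 to 0.40 with a median of 0.0047. Few probe sets of any kind passed. In Fischer 0% passed in the first 3 contrasts (perinatal 250 and 750 ppm, postnatal 250 ppm) and 0.0103% after postnatal lead at 750 ppm. In Long Evans 0.332%, 0.113%, 0.127% and 0.11% passed in the same order of contrasts, and in Sprague Dawley 0.0582%, 0.00685%, 0.0103% and 0.0103%. Per contrast, 515 to 2532 of 29214 probe sets had an unadjusted p under 0.05. The 4 contrasts of a strain share their controls, so their directions are not independent of each other and their values are given side by side.

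In Fischer rats the 5 members differed from controls by -0.42 to -0.21 after perinatal lead at 250 ppm and by -0.20 to -0.03 at 750 ppm. After postnatal lead they differed by -0.48 to -0.26 at 250 ppm and by -0.30 to 0.11 at 750 ppm. After postnatal lead at 250 ppm Alas2 ran from 6.88 through a median of 7.37 to 8.14, against 7.18, 7.63 and 8.86 in controls. The groups overlapped, and the difference was -0.45 ± 0.16 (SE, unadjusted p = 0.00775). Hbb-b1 ran from 9.07 through 9.67 to 10.33 in that exposed group, against 9.30, 10.29 and 10.82 in controls, a difference of -0.47 ± 0.18 (unadjusted p = 0.0162). Hbb gave 10.32, 10.90 and 11.68 after exposure, against 10.67, 11.27 and 11.98 in controls, a difference of -0.38 ± 0.16 (unadjusted p = 0.0196). After perinatal lead at 250 ppm the Alas2 difference was -0.33 ± 0.16 (unadjusted p = 0.0456), and -0.21 (unadjusted p = 0.167) without male control 2, the array with raised Tph1, whose Alas2 level of 8.86 was the highest of the controls. All 4 had a limma adjusted p above 0.99, so none was called. Unadjusted p-values under 0.05 were found for 515 of 29214 probe sets after postnatal lead at 250 ppm. After perinatal lead at 250 ppm they were found for 805. Without the Fischer arrays with raised Tph1 the 5 members differed by -0.22 to -0.15, -0.09 to 0.04, -0.43 to -0.18 and -0.25 to 0.09 in the same order of contrasts, and the Hbb difference after postnatal lead at 250 ppm was -0.32 (unadjusted p = 0.053).

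In Sprague Dawley rats the members differed by 0.14 to 0.40 and by 0.04 to 0.35 after perinatal lead at 250 and 750 ppm, and by 0.08 to 0.19 and by 0.14 to 0.26 after postnatal lead at those doses. All 4 comparisons use the same 7 controls. Ahsp ran from 4.33 through 5.03 to 5.74 after perinatal lead at 250 ppm, against 4.22, 4.56 and 4.92 in the 7 controls. The difference was 0.40 ± 0.19 (unadjusted p = 0.0372), and 0.37 (unadjusted p = 0.0535) when the arrays that go against their sex label, female control 2 among them, were left out. Alox15 ran from 6.81 through 6.93 to 8.17 after perinatal lead at 750 ppm, against 6.62, 6.81 and 7.04 in controls, a difference of 0.35 ± 0.14 (unadjusted p = 0.0185). Both had adjusted p-values above 0.99. Without the array with raised Tph1 the range after perinatal lead at 750 ppm was 0.13 to 0.40. The range at 250 ppm was 0.08 to 0.37 when the arrays that go against their sex label were left out. The highest exposed animal in the second comparison is the male with the highest globin levels of all arrays.

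In Long Evans rats the members differed by -0.43 to -0.05 and by -0.38 to 0.22 after perinatal lead at 250 and 750 ppm, and by -0.42 to 0.01 and by -0.22 to 0.32 after postnatal lead. Alox15 was the lowest in each with all arrays. Without male control 4, which has raised Tph1, the Alox15 differences were -0.08, -0.04, -0.07 and 0.12, and those of all members ran from -0.18 to -0.08, -0.04 to 0.12, -0.17 to -0.03 and -0.02 to 0.29. The lowest adjusted p of all 60 tests was that of Alas2 after postnatal lead at 750 ppm, at 0.408. Alas2 ran there from 7.45 through 8.01 to 8.94, against 7.44, 7.78 and 8.13 in controls, a difference of 0.32 ± 0.11 (unadjusted p = 0.00697).

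**Figure D2:**
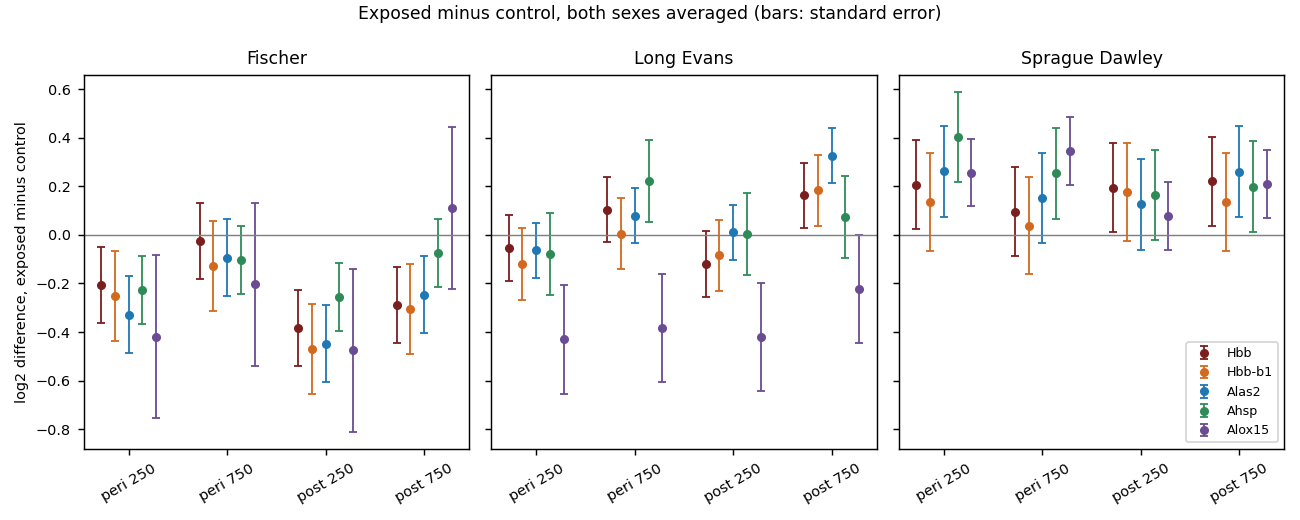
Difference in log2 intensity between exposed and control rats, both sexes averaged, with the standard error as bars, for the 5 members (colours) by strain (panels) and period and dose in ppm (x axis). All points of a strain share the same controls; they lie mostly below 0 in Fischer and above 0 in Sprague Dawley, Alox15 lies below the other members in Long Evans, where 1 control has raised Tph1, and no adjusted p is under 0.408.

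Averaged over the 8 exposed groups of a strain, the differences were again not called: 0 of 15 passed and 2 had an unadjusted p under 0.05, while 0%, 0.212% and 0.0171% of all probe sets passed in Fischer, Long Evans and Sprague Dawley. In that order of strains, 729, 2177 and 1064 of 29214 probe sets had an unadjusted p under 0.05. Alas2 gave -0.28 ± 0.13 in Fischer (7.50 in exposed rats, 7.78 in controls), 0.09 ± 0.09 in Long Evans and 0.20 ± 0.15 in Sprague Dawley. Hbb gave -0.23 ± 0.12, 0.02 ± 0.11 and 0.18 ± 0.15 in that order of strains. Without the arrays with raised Tph1 the Alas2 effect was -0.15 in Fischer (unadjusted p = 0.223) and 0.05 in Long Evans, and the Hbb effect was -0.15 in Fischer and -0.02 in Long Evans; Hbb in Long Evans was 0.05 without the arrays against their sex label. The difference between strains in this mean effect was tested itself. It passed for 0 of 15. Of all probe sets, 0.13% passed (Long Evans minus Fischer), 0.0103% (Sprague Dawley minus Fischer) and 0.0787% (Sprague Dawley minus Long Evans). An unadjusted p under 0.05 was found for 5 of the 15 (3 without the arrays with raised Tph1). In the same order of contrasts, 1348, 1033 and 1011 of 29214 probe sets had an unadjusted p under 0.05. The Sprague Dawley minus Fischer difference for Alas2 was 0.48 ± 0.18 (unadjusted p = 0.00961).

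The mean effect on Alox15 in Long Evans, -0.36 ± 0.18 (unadjusted p = 0.0467, adjusted p = 0.656), rests on 1 control. Male controls had Alox15 levels of 6.63, 6.84, 7.21 and 9.66, the last in the animal with raised Tph1. Without the arrays with raised Tph1 the effect was -0.02, and it was 0.0014 when the 8 arrays that go against their sex label, that animal among them, were left out. In Long Evans males the single contrasts were -0.73, -0.79 and -0.77 for perinatal 250, perinatal 750 and postnatal 250 ppm with that control. Without it they were -0.04, -0.10 and -0.08.

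Dose and period were compared within strain, which gave 0 of 30 tests passed and 2 at an unadjusted p under 0.05. For 750 minus 250 ppm 0.0719%, 0.0548% and 0.00342% of all probe sets passed in Fischer, Long Evans and Sprague Dawley, and for perinatal minus postnatal 0.00342%, 0.065% and 0.0411%. In Long Evans the higher dose had 7.98 for Alas2 and the lower dose 7.75, a difference of 0.23 ± 0.08 (unadjusted p = 0.00731, adjusted p = 0.458). Hbb had 11.34 at the higher dose and 11.12 at the lower, a difference of 0.22 ± 0.09 (unadjusted p = 0.0266, adjusted p = 0.623). All other dose and period differences had an unadjusted p above 0.05 with all arrays. Without the arrays with raised Tph1, 0 of 30 passed and 7 had an unadjusted p under 0.05, given here as counts only. With all arrays, 964 to 3532 of 29214 probe sets per contrast had an unadjusted p under 0.05.

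Within a sex, Long Evans males given postnatal lead at 750 ppm had 4 of the 5 members at high levels. Alas2 was 8.65, 8.94, 8.14 and 8.53 in these males, against 7.87, 7.68, 8.13 and 7.58 in male controls. The groups did not overlap, though the lowest exposed and highest control animal were 0.01 apart, and the difference was 0.75 ± 0.16 (1.68-fold, limma adjusted p = 0.0754). Ahsp was 5.67, 5.87, 5.75 and 5.64 in exposed males, against 4.93, 5.41, 5.09 and 4.36 in controls, again without overlap. The difference was 0.79 ± 0.24 (1.72-fold, adjusted p = 0.30). How many of all probe sets showed no overlap between these groups was not counted. In this contrast 2730 of 29214 probe sets had an unadjusted p under 0.05. Of the 120 such tests within a sex, 0 passed and 11 had an unadjusted p under 0.05. Long Evans held 8 of the 11, and there 1031 to 2730 of 29214 probe sets per contrast had an unadjusted p under 0.05. Among all probe sets 0.00214%, 0.0424% and 0.00813% passed in the 8 contrasts of Fischer, Long Evans and Sprague Dawley together.

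The beta globins of the same males overlapped with their controls. Hbb-b1 was 11.16, 11.04, 10.37 and 10.98 in exposed males, against 10.15, 10.14, 10.52 and 10.14 in controls (0.65 ± 0.21, 1.57-fold, adjusted p = 0.323). Hbb was 12.13, 11.998, 11.24 and 11.68 in exposed males, against 11.40, 11.23, 11.51 and 11.01 in controls (0.47 ± 0.19, 1.39-fold, adjusted p = 0.441). In each gene the same exposed animal, number 3, was lowest and overlapped with control 3, the highest control. Without control 4, which carries raised Tph1 and goes against its sex label, the differences were 0.67 for Alas2 (adjusted p = 0.13), 0.59 for Ahsp, 0.62 for Hbb-b1 and 0.38 for Hbb. Alox15, the fifth member, was 7.44, 7.32, 6.97 and 7.03 in exposed males, against 6.63, 6.84, 7.21 and 9.66 in controls, a difference of -0.39 (unadjusted p = 0.22) with all arrays and of 0.30 (adjusted p = 0.382) without control 4. The Alas2 difference passed in some other fits, from 0.72 to 0.89 with adjusted p-values from 0.025 to 0.047: with array weights, with the endothelial or choroid plexus score as a covariate, and without control 3 or exposed animal 3.

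Long Evans females were given the same dose in the same period. Their Ahsp levels were 4.47, 4.62, 4.74 and 4.56, against 5.20, 5.25, 5.10 and 5.39 in female controls. Every exposed female was below every control, and the difference was -0.64 ± 0.24 (unadjusted p = 0.0115, adjusted p = 1). Of these controls, 1 and 3 go against their sex label, and without them the Ahsp difference was -0.73 (unadjusted p = 0.0165). Alas2 differed by -0.10 ± 0.16 in these females, and by -0.02 without those controls. Probe sets without overlap were not counted in this contrast of females, and 1114 of 29214 had an unadjusted p under 0.05. The difference between the sexes in the lead effect, female minus male, was -1.42 ± 0.34 for Ahsp (unadjusted p = 1.81e-04, adjusted p = 0.849) and -0.85 ± 0.23 for Alas2 (adjusted p = 0.849). Without the arrays against their sex label, which are both of those female controls and male control 4, it was -1.32 for Ahsp (unadjusted p = 0.00168) and -0.69 for Alas2 (unadjusted p = 0.0132), with an adjusted p of 0.998 for both. Of 60 tests of this kind 0 passed and 5 had an unadjusted p under 0.05, and 0%, 0.00599% and 0% of all probe sets passed in Fischer, Long Evans and Sprague Dawley. Per contrast, 492 to 2057 of 29214 probe sets had an unadjusted p under 0.05.

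The clearest differences of these transcripts were between the sexes. Averaged over the 5 treatments, females had lower levels than males for every member in every strain, 15 of 15 differences, of which 14 had an unadjusted p under 0.05. After adjustment 4 passed, all in Fischer: Hbb, Hbb-b1, Alas2 and Ahsp were lower in females. This comparison was added after the data were seen. The 5 members were measured in the same animals and vary together, so these counts are not of independent differences. Sex differences passed for 0.0822%, 0.0856% and 0.0171% of all probe sets in Fischer, Long Evans and Sprague Dawley, and those lower in females made up 0.0377%, 0.024% and 0.0103%. An unadjusted p under 0.05, in either direction, was found for 1924, 4822 and 2715 of 29214 probe sets in these strains. In tissue, fewer red cells and less RNA per cell cannot be told apart.

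Fischer females had Alas2 levels from 6.82 through a median of 7.20 to 7.71, against 7.35, 7.84 and 8.86 in Fischer males. Of the 20 females 14 lay below every male. How many probe sets of all kinds parted the sexes this far was not counted, here or for the members below. Means were 7.18 ± 0.26 in females and 7.93 ± 0.41 in males (SD, n = 20 each), a difference of -0.75 ± 0.10 (SE, 1.68-fold, limma adjusted p = 6.47e-05). Hbb ran from 10.32 through 10.69 to 11.42 in females, against 10.85, 11.51 and 12.06 in males, with 15 females below every male. Its means were 10.76 ± 0.29 and, in males, 11.47 ± 0.38, a difference of -0.71 ± 0.10 (1.63-fold, adjusted p = 1.03e-04).

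Hbb-b1 ran from 8.96 through 9.52 to 10.33 in Fischer females, against 9.50, 10.34 and 10.98 in males, and 10 females lay below every male. Means were 9.50 ± 0.35 in females and 10.34 ± 0.43 in males, a difference of -0.84 ± 0.12 (1.79-fold, adjusted p = 1.03e-04). Ahsp ran from 3.99 through 4.39 to 4.73 in females, against 4.06, 5.01 and 5.56 in males. Only 1 female lay below every male for Ahsp, but 13 males lay above every female, and the difference was -0.51 ± 0.09 (1.43-fold, adjusted p = 0.00354). Leaving out each of the 40 Fischer animals in turn kept all 4 past the threshold, with the highest adjusted p at 0.00883. The differences stayed in both sets of label numbers: -0.84 and -0.58 for Hbb in lower and upper numbers, -0.95 and -0.73 for Hbb-b1, -0.78 and -0.71 for Alas2, -0.69 and -0.33 for Ahsp.

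Alox15 ran from 6.49 through 6.75 to 6.97 in Fischer females, against 6.80, 7.16 and 11.04 in males. The means, 6.75 ± 0.12 in females and 7.47 ± 0.99 in males, differed by -0.72 ± 0.21, which did not pass (adjusted p = 0.402). Without the arrays with raised Tph1, both Fischer ones being male, the difference was smaller, -0.42, and passed (adjusted p = 5.74e-06). In Long Evans, Alox15 likewise gave -0.47 ± 0.14 (adjusted p = 0.133), and without male control 4 it gave -0.33 (adjusted p = 0.00328). Leaving out the arrays with raised Tph1 brought the number of calls to 7 of 15, against 4 with all arrays.

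In Long Evans the other differences were -0.34 ± 0.08 for Hbb (adjusted p = 0.0831), -0.26 ± 0.09 for Hbb-b1 (adjusted p = 0.187), -0.32 ± 0.07 for Alas2 (adjusted p = 0.0573) and -0.14 ± 0.11 for Ahsp (adjusted p = 0.523). Alas2 passed in 7 of 9 alternatives, with adjusted p-values from 0.0131 to 0.0491, among them the fit without the arrays with raised Tph1 (adjusted p = 0.0372). It did not pass in 1 fit of all arrays (adjusted p = 0.128) or without the arrays against their sex label (adjusted p = 0.064). Hbb passed in 1 of 9, with array weights (adjusted p = 0.0219). In Sprague Dawley they were -0.30, -0.31, -0.38, -0.29 and -0.30 in the order Hbb, Hbb-b1, Alas2, Ahsp, Alox15, with adjusted p-values from 0.426 to 0.489. Without the arrays against their sex label the 5 Sprague Dawley values were -0.39, -0.38, -0.47, -0.39 and -0.39, with adjusted p-values from 0.153 to 0.401. The differences were thus in 1 direction. None of the 5 passed in Sprague Dawley under any alternative run, and Hbb-b1 and Ahsp passed under none in Long Evans.

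**Figure D3:**
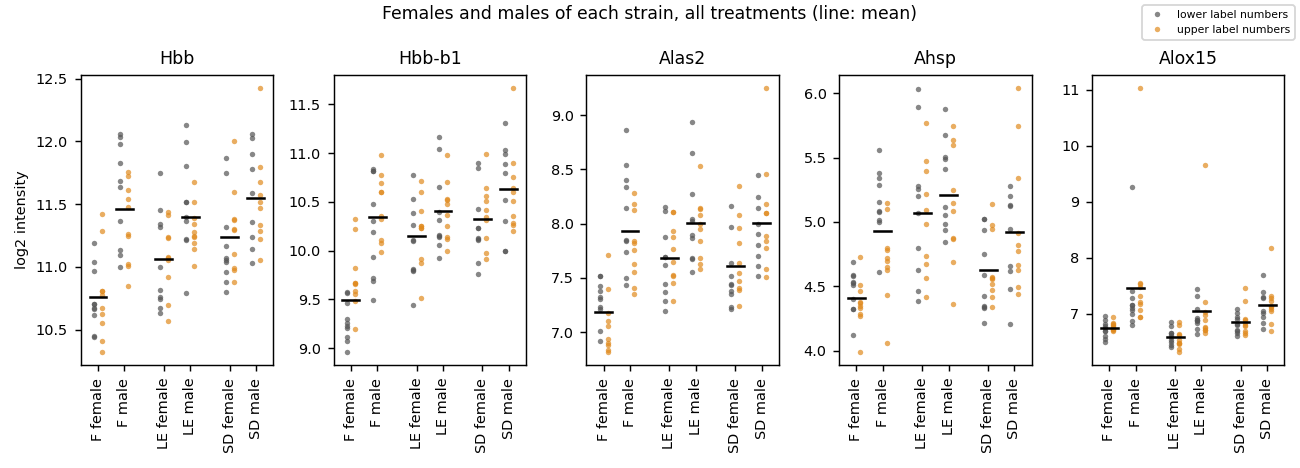
Log2 intensity of each member (panels) in females and males of Fischer (F), Long Evans (LE) and Sprague Dawley (SD) rats over all treatments, 1 point per animal, coloured by lower or upper label numbers, with the mean as a line. Female means lie below male means in all 15 pairs, furthest in Fischer, and the 3 highest Alox15 points are males with raised Tph1.

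Split by treatment, the female mean was below the male mean in 25 of 25 comparisons in Fischer (5 members, 5 treatments), 19 of 25 in Long Evans and 24 of 25 in Sprague Dawley. Every female was below every male in 13, 7 and 2 of these. How often either holds over all probe sets was not counted. These counts, too, rest on members that vary together in the same animals. The 6 Long Evans exceptions were Hbb, Hbb-b1, Alas2 and Ahsp after perinatal lead at 750 ppm, and Hbb-b1 and Ahsp in controls. The label numbers of the females given perinatal lead at 750 ppm follow on from those of the Long Evans controls. The males of that treatment carry numbers from a separate, higher range, so sex and label numbers cannot be told apart there. Ahsp was 5.89, 6.03, 5.47 and 4.99 in females given perinatal lead at 750 ppm, and the largest exception, with the female mean 0.57 above the male mean. In Long Evans controls the female mean was above the male mean by 0.09 for Hbb-b1 and 0.29 for Ahsp, while leaving out the arrays that go against their sex label gave -0.02 for Hbb-b1 and 0.18 for Ahsp. With controls alone, 4 animals a sex and 3 Sprague Dawley males, 0 of 15 sex differences passed. Of all probe sets, 0.00685%, 0% and 0% passed in Fischer, Long Evans and Sprague Dawley. An unadjusted p under 0.05 was found for 6 of the 15 (4 without the arrays with raised Tph1). In the same order of strains, 1834, 1082 and 910 of 29214 probe sets had an unadjusted p under 0.05. The Fischer control difference for Hbb-b1 was -0.92 ± 0.26 (adjusted p = 0.495).

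Whether the sex difference itself varied by strain was tested too. It passed for 0 of 15. Of all probe sets, 0.133% passed (Long Evans minus Fischer), 0% (Sprague Dawley minus Fischer) and 0.0137% (Sprague Dawley minus Long Evans). An unadjusted p under 0.05 was found for 7 of the 15. In the same order of contrasts, 4651, 868 and 5255 of 29214 probe sets had an unadjusted p under 0.05. Hbb-b1 came closest, with a Long Evans minus Fischer difference of 0.59 ± 0.16 (adjusted p = 0.0751), and it passed with the label-number sets as a block (adjusted p = 0.0416) or when the model held the choroid plexus score (adjusted p = 0.0343).

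Among the 11 probe sets lower in Fischer females, 4 were members, 3 were globin probe sets with several symbols, and 1 was Slc4a1, the anion exchanger of the red cell membrane (-0.21, adjusted p = 0.0159). Slc4a1 was also lower in Long Evans females (-0.24, adjusted p = 0.0127). The mean of the 5 members per array, used below as an erythroid score, was 7.72 ± 0.18 in females and 8.43 ± 0.36 in males of Fischer, 8.11 ± 0.29 and, in males, 8.41 ± 0.28 in Long Evans, and 8.13 ± 0.28 and, in males, 8.45 ± 0.38 in Sprague Dawley. Markers of other tissue moved less with sex: the mean of 11 meninges genes was 8.54 ± 0.32 in females and 8.62 ± 0.45 in males of Fischer. List medians of the female-minus-male difference in Fischer were -0.07 for meninges, 0.24 for choroid plexus, -0.03 for endothelium, 0.0031 for other red cell and reticulocyte genes and 0.02 for leukocytes. Their part in the sex difference was not tested.

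Few differences between strains passed for the members when only controls were compared. Of 15 contrasts 1 passed, and it was the only one with an unadjusted p under 0.05, although 25.1% (Long Evans minus Fischer), 10.5% (Sprague Dawley minus Fischer) and 24.5% (Sprague Dawley minus Long Evans) of all probe sets passed. Ahsp ran from 4.22 through 4.56 to 4.92 in Sprague Dawley controls, against 4.36, 5.15 and 5.41 in Long Evans controls. With sexes weighted equally the means were 4.56 in Sprague Dawley and 5.09 in Long Evans, a difference of -0.53 ± 0.18 (1.44-fold, limma adjusted p = 0.019). The groups overlap through Long Evans male control 4, the array with raised Tph1, which had 4.36. Without the arrays with raised Tph1, 3 contrasts passed: this one (-0.63, adjusted p = 0.00506), Ahsp in Long Evans minus Fischer (0.46, adjusted p = 0.04) and Alox15 in Long Evans minus Fischer (-0.31, adjusted p = 0.029). Ahsp is a dim probe set, and with probe sets under the 40th percentile left out it was not tested. Of 12 such tests of globins outside the members, 4 passed as higher and 1 as lower. The alpha globin gene Hba-a3 passed in all 3 contrasts. It differed by 0.58 (Long Evans minus Fischer, limma adjusted p = 1.7e-04), 1.01 (Sprague Dawley minus Fischer, 1.4e-09) and 0.44 (Sprague Dawley minus Long Evans, 0.0073).

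Over all treatments the order of the strains changed from gene to gene. Hbb averaged 11.11 ± 0.49 in Fischer, 11.23 ± 0.36 in Long Evans and 11.39 ± 0.39 in Sprague Dawley (SD, n = 40, 40 and 39). Alas2 averaged 7.56 ± 0.51, 7.85 ± 0.37 and 7.80 ± 0.42 in these strains, and Ahsp 4.67 ± 0.38, 5.14 ± 0.45 and 4.77 ± 0.41. Neighbouring strain means differed by less than their SDs in these 3 genes, which does not test whether the strains differ. Hbb and Hbb-b1 were highest in Sprague Dawley, Alas2 and Ahsp in Long Evans, and Alox15 in Fischer. The order for Alox15 turned with the arrays used: it averaged 7.11 ± 0.78 in Fischer, 6.82 ± 0.52 in Long Evans and 7.01 ± 0.32 in Sprague Dawley with all arrays, and 6.95 ± 0.27, 6.74 ± 0.25 and 7.005 ± 0.33 without those with raised Tph1 (n = 38, 39 and 38), with Sprague Dawley then highest.

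The label-number sets of Fischer rats parted the members in opposite directions. Hbb-b1 was higher in upper than in lower numbers by 0.33 ± 0.10 (limma adjusted p = 0.00616). Alas2 was lower by -0.24 ± 0.09 (adjusted p = 0.0282) and Ahsp by -0.27 ± 0.08 (adjusted p = 0.00283). Hbb differed by -0.10 ± 0.10 and Alox15 by 0.19 ± 0.21, neither past the threshold. These 3 calls of 5 compare with 60.9% of all probe sets. In Long Evans 0 of 5 members passed, against 0.0993% of all probe sets, and in Sprague Dawley 0 of 5, against 18.9%. Whatever else differed between these sets of arrays cannot be told apart from the numbers.

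The members varied together from animal to animal. Each of the 10 pairs of members was correlated over the arrays of each strain, 30 relations in all, with permutation p-values adjusted over the 30 by the Benjamini-Hochberg method. Pearson's r had an adjusted p under 0.05 in 25 and Spearman's rho in 30. Hbb and Hbb-b1 gave r = 0.957 and rho = 0.947 in Sprague Dawley (n = 39, permutation p = 1e-05 for both, the smallest that 100000 permutations can give, adjusted p = 1.4e-05). Without the 2 arrays farthest from the median, r was 0.941. Hbb and Alas2 gave r = 0.926 and rho = 0.907 in Fischer (n = 40, the same permutation p).

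How closely a pair varied together followed the gene. Pairs among Hbb, Hbb-b1 and Alas2 had r from 0.809 to 0.957 in 9 relations, although Alas2 is on another chromosome than the beta globins. Pairs of Ahsp with these had r from 0.613 to 0.862. Pairs with Alox15 had r from -0.0035 to 0.874 and rho from 0.406 to 0.812. Within label-number sets the first class kept r from 0.903 to 0.972 in lower and from 0.856 to 0.982 in upper numbers. Within females alone it had r from 0.337 to 0.939 and within males from 0.709 to 0.973. In females the Ahsp pairs ran from 0.0931 to 0.751.

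Alox15 followed the other members once the arrays with raised Tph1 were set aside. Hbb and Alox15 in Long Evans gave r = 0.279 (n = 40, permutation adjusted p = 0.0961) and rho = 0.637 with all arrays, and r = 0.778 without male control 4. Over all 12 relations of Alox15, r ran from 0.536 to 0.876 without these arrays, and all 30 relations then had an adjusted p under 0.05. With group means and label-number sets removed and the arrays of all strains pooled, as a description, r was 0.925 for Hbb with Hbb-b1, 0.883 for Hbb with Alas2, 0.602 for Alas2 with Ahsp and from 0.0349 to 0.263 for Alox15 with the others. The co-variation of globins and Alas2 was therefore present among animals of the same strain, sex and treatment. Each member was also set against the mean of the other 4 in these residuals: r was 0.801 for Hbb, 0.803 for Hbb-b1, 0.835 for Alas2, 0.505 for Ahsp and 0.191 for Alox15. In the 115 arrays without raised Tph1, Alox15 reached 0.692.

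**Figure D4:**
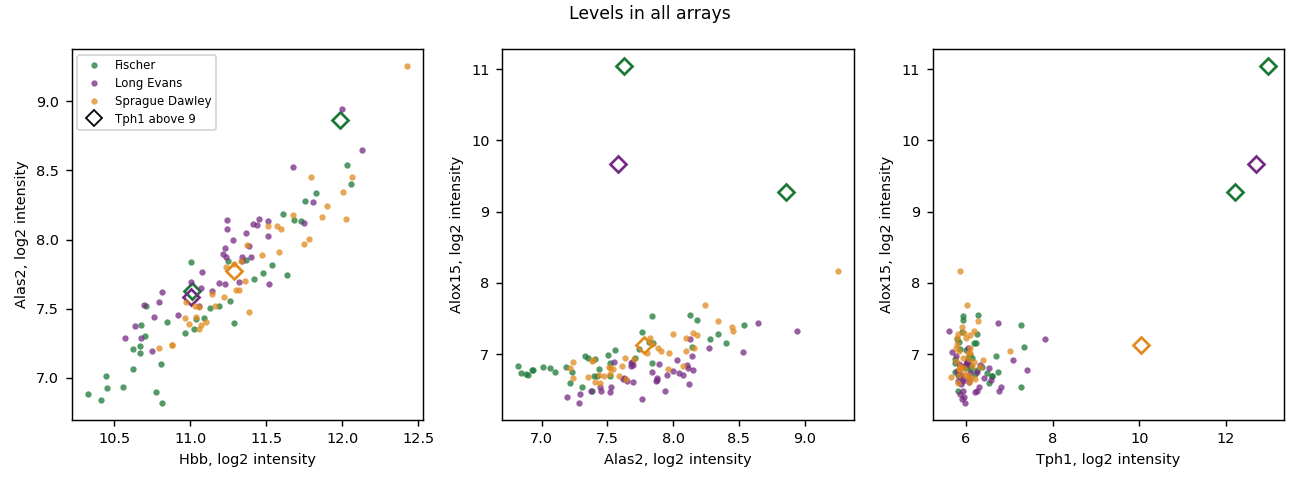
Log2 intensities in all arrays coloured by strain: Alas2 against Hbb, Alox15 against Alas2, and Alox15 against Tph1, a pineal gland gene, with open diamonds for the 4 arrays with Tph1 above 9. Alas2 follows Hbb in all strains, and the 3 arrays with Alox15 above 9 lie off the trend with Alas2 and have Tph1 levels above 12.

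Likeness of any other transcript to the erythroid score was measured as Pearson's r of residuals over all arrays (40 Fischer, 40 Long Evans, 39 Sprague Dawley), after removal of group means and label-number sets. It is a description, and all arrays share their normalization. Over 29209 probe sets the median was -0.02 and the 95th percentile 0.232, and 149 probe sets were above 0.5. The single-symbol gene most alike was Hba-a3, an alpha globin gene, with 0.735 (0.39 in Fischer, 0.77 in Long Evans, 0.90 in Sprague Dawley). It was followed by Ifitm1 (0.682), Timp1 (0.645), Lgals1 (0.640), Mfap4 (0.637), Ier3 (0.634), Slc6a13 (0.627), Flna (0.627), Aox3 (0.622) and Enpep (0.617). Timp1 encodes an inhibitor of matrix proteases, Mfap4 a protein of the extracellular matrix, Flna an actin-binding protein and Slc6a13 a GABA transporter known from the meninges. With Alox15 left out of the score 3 of these 10 stayed among the highest 10, and without the arrays with raised Tph1 5 stayed. Least alike were Tmeff1 (-0.382), Trpc5 (-0.368), Camkk1 (-0.367), Trim9 (-0.367) and Tigd5 (-0.362).

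Among marker lists, the meninges list lay nearest to the erythroid score. All 11 of its genes were above the 95th percentile, with a median likeness of 0.563, the highest being Col1a2 (0.604), Ogn (0.600) and Slc22a6 (0.589). Choroid plexus genes had a median of 0.288 (14 of 15 above the percentile), led by Kcne2 (0.374), Aqp1 (0.337) and Kcnj13 (0.313). Endothelial genes had 0.246 (10 of 18), led by Cdh5 (0.523), Kdr (0.399) and Ocln (0.378). Genes of pineal gland, a list chosen after the values were seen, had 0.258 (10 of 12), led by Gnat2 (0.307), Tph1 (0.280) and Rbp3 (0.279). With Alox15 left out of the score this list had a median of -0.07 (Gnat2 -0.03, Tph1 -0.03, Rbp3 -0.06), and without the arrays with raised Tph1 a median of 0.054. The medians of meninges, choroid plexus and endothelium were 0.550, 0.350 and 0.255 without Alox15 in the score, and 0.540, 0.266 and 0.211 without those arrays. Hippocampal markers had -0.11 (0 of 12), the highest being Nrgn (0.121), Zbtb20 (0.095) and Slc17a7 (0.046).

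Most other genes of blood lay below the 95th percentile. The red cell and reticulocyte list had a median of 0.022, with 6 of 28 genes above the percentile, led by Slc4a1 (0.590), Hemgn, a nuclear protein of erythroid precursors (0.507), and Rhd, a blood group antigen (0.337). Of the other globins Hba-a3 was alike, while Hbe1 (-0.019), Hbe2 (-0.040) and Hbg1 (-0.085), which are forms of early development, were not. Leukocyte genes had a median of 0.026 (3 of 24), led by Lyz2 (0.497), Ptprc (0.319) and Ccr2 (0.314). Platelet genes had -0.03 (0 of 6): Gp1ba (0.092), Itgb3 (-0.009) and Pf4 (-0.029) were the highest.

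Heme synthesis genes other than Alas2 are used by every cell, and 1 of the 7 was above the 95th percentile. Their median was 0.023, with Fech, which inserts iron, at 0.236, Alas1, the general form of the first enzyme, at 0.151, Urod at 0.125, Alad at 0.023, Ppox at -0.026, Uros at -0.067 and Cpox at -0.080. Genes of heme and hemoglobin clearance had a median of 0.066, with 1 of 11 above the percentile. Ftl1, a ferritin chain, had 0.309, Cd163, the hemoglobin scavenger receptor, 0.168, Blvrb 0.096, the iron exporter Slc40a1 0.084, Lrp1 0.073, Hmox2 0.066 and Blvra 0.061. Hpx, which binds heme, had -0.015, Fth1 -0.024, Hp, which binds free hemoglobin, -0.145, and the inducible heme oxygenase Hmox1 -0.213.

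**Figure D5:**
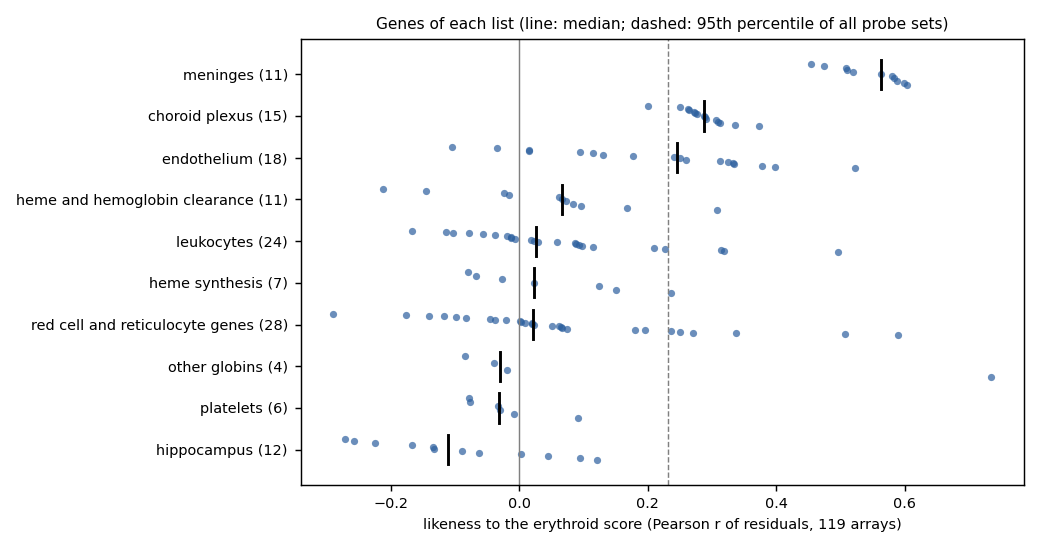
Likeness to the erythroid score (x axis, Pearson r of residuals over all arrays) for each gene of 10 lists (rows, number of genes in brackets), with the list median as a line and the 95th percentile of all probe sets, 0.232, as a dashed line. The meninges genes lie apart to the right, and heme synthesis, clearance, platelet and hippocampal genes lie mostly at or left of the dashed line.

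The association with the score was also tested for every other probe set in each strain, with groups and label-number sets in the model. Positive associations passed for 0.089% of probe sets in Fischer (26), 0.024% in Long Evans (7) and 0.308% in Sprague Dawley (90). In all 3 strains together 3 probe sets passed, and 0 of these carry exactly 1 symbol. Fischer and Sprague Dawley shared 10, which is 38.5% of the Fischer and 11.1% of the Sprague Dawley ones, and Long Evans and Sprague Dawley shared 5 (71.4% and 5.56%). Of the lists, meninges had 1, 0 and 4 of 11 genes positive in Fischer, Long Evans and Sprague Dawley, other globins 0, 1 and 1 of 4, and the red cell list 0, 0 and 1 of 31 probe sets. These counts moved with the arrays used: without the arrays with raised Tph1 all associations numbered 3, 8 and 29, against 27, 8 and 100 with all arrays.

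Genes related to the members also gave few calls for lead. Over the 12 contrasts of strain, period and dose, 0 of 372 tests of red cell and reticulocyte probe sets passed, 0 of 48 of other globins, 0 of 204 of heme and hemoglobin clearance, 0 of 288 of leukocytes, 0 of 72 of platelets, 0 of 216 of endothelium, 0 of 132 of meninges and 0 of 180 of choroid plexus. In heme synthesis 1 of 84 passed: Uros, which closes the ring of the heme precursor, was higher in Long Evans after postnatal lead at 750 ppm by 0.48 ± 0.10 (limma adjusted p = 0.032). Averaged over a strain, 0 of 21 heme synthesis tests passed, with 1 at an unadjusted p under 0.05. Alad, whose enzyme lead is known to block, had mean effects of -0.02, 0.03 and 0.03 in Fischer, Long Evans and Sprague Dawley.

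The erythroid score was added to the model to see whether the count of lead calls over all probe sets moved with it, and the answer depended on Alox15. In Long Evans after perinatal lead at 250 ppm, 44 probe sets passed with the score in the model and 97 without it, and 43 were shared. In the other Long Evans contrasts 32, 31 and 24 passed with the score (perinatal 750, postnatal 250 and postnatal 750 ppm), against 33, 37 and 32 without it. With Alox15 left out of the score, 78, 45, 38 and 37 passed in the 4 Long Evans contrasts, fewer than without the score in the first and more in the other 3. Male control 4, with raised Tph1 and an Alox15 level of 9.66, is among the controls of all 4 contrasts. These counts were not made without that array, so its part in them was not tested. In Sprague Dawley after perinatal lead at 250 ppm 18 passed with either score and 17 without one. All remaining contrasts had at most 3 calls either way.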

How the data were processed

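RNA of rat hippocampi was measured on Affymetrix Rat Gene 1.0 ST arrays, 1 per animal. The deposited values are log2 intensities per probe set, made by the authors with RMA and Partek, per the submitters' processing notes; the versions, the sequence of steps and whether batches were corrected are not given in the sources used here. Normalization to a common distribution sets each level relative to the rest of the array, so a change of the whole array would not be seen. Array medians ran from 7.36 to 7.57. The number of arrays limits the precision. Array control probe sets are not marked in the values and were kept.

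Of 29214 probe sets, 15310 had exactly 1 symbol, 323 several and 13581 none, and 15279 matched GRCr8 by gene identifier. Groups came from the labels. Contrasts used limma 3.58.1, run in R 4.3.3 (package data.table, version 1.17.8), within each strain, or in 1 fit of all arrays for control strain and sex contrasts and for differences between strains. P-values are two-sided, adjusted by Benjamini-Hochberg over all probe sets of a contrast, with calls under 0.05. Errors of differences are standard errors. Correlations used 100000 permutations in Python 3.11.15 (numpy 2.4.6, pandas 2.3.3, scipy 1.17.1), and figures matplotlib 3.10.9. The fits were tested on simulated data.

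Members, lists and tests were chosen with earlier results of these data known. Named are every member, the 10 single-symbol genes most and 5 least like the score, the 3 most alike genes of each list, list genes called in a lead contrast by strain, period and dose, and all heme synthesis and clearance genes. Slc4a1 in the sex contrast, Hba-a3 in the control strain contrasts, Alad's effects and Tph1 were singled out after their values were seen. Alternatives were a further quantile normalization, 1 fit of all arrays, probe sets above the 40th percentile, array weights, label-number sets as a block, endothelial and choroid plexus scores as covariates, leaving out the arrays against their sex label, and leaving out each animal. Leaving out arrays with Tph1 above 9, a score without Alox15, and the sex contrasts over all treatments were added after seeing the data.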

Additional observations from a re-analysis of the deposited data

Results flagged for a closer look

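In each group of 4, the gap of the highest or lowest animal to its neighbour was compared with the range of the group (Dixon's 95% critical value). Of 145 tests of the 5 genes 8 stood out, while chance flags about 1 in 20, or 7.25. The 3-animal group was not tested.

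Sprague Dawley female 4 after perinatal lead at 250 ppm was high in 3 members: Hbb 12.005 (the others from 10.97 to 11.07), Hbb-b1 10.99 (from 10.10 to 10.24) and Alas2 8.34 (from 7.38 to 7.54). Among Fischer males, Ahsp was 5.34 in animal 1 after perinatal lead at 250 ppm (the others from 4.61 to 4.69). Alox15 was 11.04 in animal 4 after postnatal lead at 750 ppm (from 6.88 to 7.21), an array whose Tph1 level was 12.98. In Long Evans, Hbb was 10.76 in female control 2 (the others from 11.23 to 11.32), Alas2 was 7.76 in female 4 after perinatal lead at 750 ppm (from 8.11 to 8.15), and Hbb-b1 was 10.52 in male control 3 (from 10.14 to 10.15).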

How the results depend on the processing

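The counts of members called for lead by strain, period and dose, and for the mean effect of a strain, were 0 under every alternative run, and from 0 to 0 with each animal left out in turn; the same holds for the sex difference of the lead effect. Within a sex the count was 0, and 1 with array weights, or with a covariate (the endothelial score, the choroid plexus score), and from 0 to 1 with animals left out in turn. For the sex difference over all treatments it was 4, from 4 to 6 under 8 alternatives, 7 without the arrays with raised Tph1, and from 4 to 6 with animals left out; Alas2 in Long Evans passed in 7 of 9 alternatives. For control strains it was 1, and 0 with dim probe sets left out (12 tests, since Ahsp was removed), 2 with the endothelial score and 3 without the arrays with raised Tph1. For strain differences of the sex difference it was 0, and 1 with the label-number block or the choroid plexus score. Of 60 single values, 1368 refits stayed on their side of the threshold, 32 moved past it and 1 turned round: the mean effect on Alox15 in Long Evans was 0.0014 when the arrays that go against their sex label were left out. Probe sets associated with the score numbered 27 in Fischer, and 4 with Alas2 alone as score, 3 with the beta globins alone, 4 with the endothelial score, 5 without the 2 farthest arrays, 4 without label-number sets, 3 without Alox15 in the score and 3 without the arrays with raised Tph1. In Long Evans they numbered 8, and 98 with Alas2, 25 with the beta globins and 4 without the 2 farthest arrays. In Sprague Dawley they numbered 100, and 8 with the endothelial score, 6 without the 2 farthest arrays and 29 without the arrays with raised Tph1. The cause of these moves was not tested. No paired analysis was possible because the replicate numbers of the groups only name animals; label numbers do not repeat between groups.

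Groups of 4, unknown litters, possible cross-binding among the beta globins and the dim Ahsp probe set limit the single values. Whether the arrays were batch-corrected is not given in the sources used here.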
